A study of Mus musculus with 4 samples.

Results

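The Olfm4-positive crypt stem-like cells were chosen by their transcripts from the epithelium of irradiated mouse small intestine. A barcode was kept when it had 1000 UMIs or more (unique molecular identifiers, each counting 1 captured transcript), 500 genes or more and no more than 25% of its UMIs from mitochondrial genes. A kept barcode was a member with at least 2 Olfm4 UMIs and at least 5 per 10000 UMIs, with the Defa genes plus Lyz1 (Paneth cell products) below 10% and Muc2, Tff3, Fcgbp, Zg16 and Clca1 (goblet cell products) below 2% of its UMIs. The rule found 202 members among 9591 kept barcodes (2.11%), 109 of 5563 in the wild-type (WT) library and 93 of 4028 in the knockout (KO) library.

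All mice were given gamma rays at 11 Gy, and lead covered the head, the chest and the forelimbs. The WT library pooled 3 wild-type mice, and the KO library pooled 3 VilCreIfnlr1fl/fl mice, in which Cre under the villin promoter acts in the intestinal epithelium on a floxed Ifnlr1, the gene of the interferon-lambda receptor chain. Collection was 96 h after irradiation by the series design and 3 days by the extraction protocol. Live EPCAM+ CD45- cells were sorted, each mouse carried its own hashtag (WT1 to WT3 and KO1 to KO3), and each library was read as 10x Genomics 3′ tags. The mouse is the replicate, and the labels do not state sex, age or the control mice's own Cre and flox alleles.

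Crypt base columnar stem cells sit between Paneth cells at the bottom of the crypt and renew the small intestinal epithelium. They depend on Wnt and Notch signals, and Lgr5, Ascl2, Smoc2 and Olfm4 mark them, Olfm4 being a secreted glycoprotein whose transcript depends on Notch. Irradiation kills cycling crypt cells, and the surviving cells repopulate the crypts. Interferon-lambda acts on epithelium through the receptor made of Ifnlr1 and Il10rb and induces interferon-stimulated genes, while major histocompatibility complex (MHC) class II genes are switched on by the coactivator Ciita, which is itself induced by interferon-gamma.

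The promoter sequences of 4 genes are shown because the results below set interferon-stimulated genes beside MHC class II genes in these cells. Each is the 120 bases just before the RefSeq transcript start (GRCm38.p6), on the strand of the gene, and capitals mark a motif match on either strand. For Isg15 (chr4:156200819-156200938, minus strand) and Ifit1 (chr19:34640769-34640888, plus strand), both interferon-stimulated, the motif is GAAANNGAAA, the core of the interferon-stimulated response element. Isg15 holds 3 overlapping matches and Ifit1 holds 2.
Isg15: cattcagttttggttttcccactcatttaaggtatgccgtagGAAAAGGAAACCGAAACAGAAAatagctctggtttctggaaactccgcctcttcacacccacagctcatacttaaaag
Ifit1: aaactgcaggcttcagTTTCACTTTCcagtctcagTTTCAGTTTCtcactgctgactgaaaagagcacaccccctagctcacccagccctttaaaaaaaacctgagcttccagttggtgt
For H2-Aa (chr17:34287824-34287943, minus strand) and H2-Eb1 (chr17:34305747-34305866, plus strand), chains of MHC class II molecules, the motif is CCAAT, the letters of the Y box. H2-Aa holds 1 match and H2-Eb1 holds 2.
H2-Aa: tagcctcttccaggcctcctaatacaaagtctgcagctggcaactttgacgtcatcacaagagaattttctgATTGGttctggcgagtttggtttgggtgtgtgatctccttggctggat
H2-Eb1: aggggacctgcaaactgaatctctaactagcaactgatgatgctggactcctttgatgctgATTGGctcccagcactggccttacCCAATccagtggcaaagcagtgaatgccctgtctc
Of 32851 RefSeq promoters, 1.22% held the interferon motif in the same 120 bases and 21.3% held CCAAT. Of the 58 genes of the interferon-stimulated list 44 were in that table and 12 held the interferon motif, and of 7 class II genes 4 were in it, 3 with CCAAT. Ifit3, also interferon-stimulated, held no interferon motif and the class II gene H2-DMa no CCAAT, while B2m, Ascl2 and Soat1, outside class II, held CCAAT. A match describes letters only and shows no binding.

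Members were found in mouse 2 of each genotype and almost nowhere else. WT2 held 56 members among 866 kept barcodes (6.47%, exact Clopper-Pearson 95% interval 4.92 to 8.32%) and KO2 held 72 among 995 (7.24%, 5.70 to 9.03%). WT3 held 1 among 1062 (0.0942%), and WT1, KO1 and KO3 held 0 of 845, 1030 and 843, with exact upper limits of 0.436%, 0.358% and 0.437%. Intervals and limits here cover counting error only. Over the 3 mice of each genotype the share was 2.19 ± 3.71% (SD) in WT and 2.41 ± 4.18% in KO, a difference of 0.225 percentage points, and the 2-sided exact permutation test gave p = 1 (the smallest possible is 0.1). The spread between mice of 1 genotype was thus far larger than the difference between genotypes. The other cycling crypt cells were distributed in the same way. Kept barcodes outside the members with at least 20 UMIs of the S and G2M phase lists per 10000, little enterocyte RNA and the same Paneth and goblet limits (cycling Olfm4-low cells) numbered 62 in WT2 and 128 in KO2, against 1 to 3 in each of the other mice. Median depth of kept barcodes was also highest in mouse 2 of each genotype, at 12657 UMIs in WT2 and 20575 in KO2 against 8527 to 11623 in the other mice. Within enterocytes (defined below) the medians were closer, at 8204, 10218 and 9233 UMIs in WT1 to WT3. They were 8394, 10374 and 10815 in KO1 to KO3, so there KO2 was not the highest. What sets mouse 2 apart is not given in the labels, and whether depth bears on the share was not tested.

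**Figure D1:**
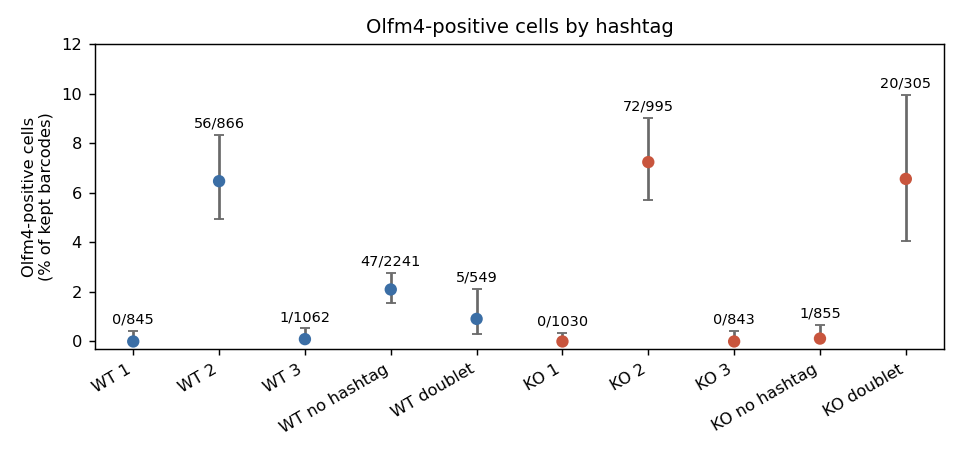
Share of kept barcodes that were Olfm4-positive (vertical axis, percent) for each hashtag, for barcodes with no hashtag and for hashtag doublets, with exact 95% intervals as bars and members over kept barcodes above each point. WT 2 and KO 2 sit at 6.47% and 7.24%, while the other mice are at 0.0942% or 0.

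The remaining 73 members could not be given to a mouse or belonged to several. In WT, 47 members carried no assigned hashtag and 5 were hashtag doublets, and in KO these numbers were 1 and 20. Hashtag 2 had the most UMIs in 43 of the 47 unassigned WT members and was among the top pair in all 25 doublets. The unassigned WT members were shallow, with a median of 4134 UMIs and 11.9% mitochondrial UMIs against 48443 and 5.99% in WT2 members and 64193 and 5.36% in KO2 members. Some members went against the label. Enterocyte transcripts reached 10.3% of UMIs in unassigned WT members, 6.48% in WT2 members and 8.53% in KO2 members. These values lie above the 5% used below to class other barcodes as enterocytes. One unassigned WT barcode was at odds in another way. It held 298 S100a8, 445 S100a9 and 155 Retnlg UMIs, genes of neutrophils, which also make Olfm4, with 9 UMIs of the leukocyte gene Ptprc and 1 of Epcam among 4811. The other 46 unassigned WT members held no UMI of those neutrophil genes, and the immune list summed to 3.59 CPM (counts scaled to a total of 1000000 UMIs) in them and to 3007 CPM with that barcode. In members of WT2 and KO2 the immune list summed to 4.13 and 2.93 CPM, with 12 of 20 genes at 0 in both. The libraries shared 28 barcode sequences, none of them a member's in either library.

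At the edge of the rule, members ranged down to 5.04 Olfm4 UMIs per 10000 in WT and 5.03 in KO. The highest barcodes left out for this limit alone held 4.86 and 4.40. That limit removed 47 WT and 104 KO barcodes with at least 2 Olfm4 UMIs, and the goblet limit removed 27 in WT and 0 in KO. Among kept barcodes that were not members, 3.67% in WT1 and 3.49% in WT3 held an Olfm4 UMI, at most 1 each, and in KO1 and KO3 the shares were 6.31% and 8.78%. Olfm4 per 10000 UMIs spanned 5.35 to 137 with a median of 27.2 in WT2 members and 5.03 to 116 with a median of 28.6 in KO2 members, ranges that overlapped almost fully.

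The label was checked against its 5 markers, which also belong to the cells the rule picks, so these values are a description. Olfm4 had 3331 CPM in members of WT2 and 2803 CPM in those of KO2 and 2.04 and 4.10 CPM in enterocytes of the same mice (barcodes outside the members with at least 5% enterocyte transcripts, 455 in WT2 and 476 in KO2). Lgr5, the R-spondin receptor that defines crypt base columnar cells, had 73.0 CPM (exact Poisson interval 63.5 to 83.6) in members of WT2 and 114 CPM (104 to 124) in those of KO2, against 0.146 and 0.570 CPM in enterocytes. Ascl2, a Wnt-induced transcription factor of stem cells, stood at 43.4 and 52.0 CPM and at 0 in the enterocytes of both mice. Ptma and Npm1, abundant in growing cells, were at 5315 and 2411 CPM in WT2 members, with 5196 and 2288 CPM in KO2. In the cycling Olfm4-low cells Lgr5 had 1 UMI in WT2 and 27 UMIs in KO2, or 0.322 and 2.63 CPM, while Ptma was nearly level with the members, at 4432 and 4577 CPM.

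The share of members with a given transcript depends on depth. Before thinning, 48.2% of WT2 and 55.6% of KO2 members had an Lgr5 UMI. After thinning every cell to 5000 UMIs, which left out 2 WT2 and 3 KO2 members, Lgr5 was seen in 20.4% (exact interval 10.6 to 33.5%) and 27.5% (17.5 to 39.6%), against 0 of 394 WT2 enterocytes (exact upper limit 0.932%) and 0.225% of 444 KO2 enterocytes. Ascl2 was seen in 24.1% and 17.4%, the replication enzyme Top2a in 57.4% and 58.0%, and the proliferation marker Mki67 in 33.3% and 50.7% of WT2 and KO2 members. Intervals of WT2 and KO2 overlapped for each of the 5 genes. Clu, the marker of revival stem cells that appear after injury, was seen in 7.41% and 4.35% of members and in 14.0% and 27.5% of the enterocytes at the same depth. With 1 mouse per genotype no test between genotypes was run, here or in what follows.

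Among genes of at least 50 CPM in members of both mice, ranked by the ratio of members to all other kept cells of the same mouse, the 20 leading genes held Olfm4 at 80.2-fold, Htr4 (a serotonin receptor) at 33.3-fold and Lgr5 at 16.0-fold. Igfbp4 (an insulin-like growth factor binding protein), the water channel Aqp4, Ifitm3 (an interferon-induced membrane protein), Cdca7 (a target of Myc), Clca3b, Cdo1 and Smoc2 (a matricellular protein) followed, at 11.0-fold to 13.3-fold. Clca3a2, the sodium-potassium-chloride cotransporter Slc12a2, Dtl, Cnn3, Slco3a1, Hmga2, Mcc, the transcription factor Sox4, the kinase Cdk6 and Jaml completed the list, the last at 7.49-fold. These ratios describe what the choice of cells brings along. Ifitm3 reached 576 CPM in members of WT2 and 702 CPM in those of KO2, but 5.69 and 1.94 CPM in their enterocytes.

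The comparison of genotypes within members rests on WT2, with 56 cells and 2902392 UMIs, and KO2, with 72 cells and 4771652 UMIs. It sets the members of 1 mouse labelled VilCreIfnlr1fl/fl beside those of 1 wild-type mouse, so genotype, mouse and library cannot be told apart. Fold changes are KO2 over WT2 ratios of CPM with exact 95% intervals for counting error, a count of 0 was set to 3 UMIs, and a gene was called when it had at least 20 CPM in either mouse and differed at least 2-fold. Of 6495 genes with 20 CPM, 26 were called higher in KO2 (0.400%) and 62 lower (0.955%), and the median log2 ratio was -0.01. In 8 of the 88 called genes over 50% of the UMIs of the higher mouse came from 1 cell. Paneth and goblet genes that the rule itself limits gave 2 of the higher calls (Lyz1 and Defa30) and 2 of the lower (Muc2 and Fcgbp). These calls are not read as findings.

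The targeted gene cannot check the labels here. Ifnlr1 (chr4:135686287-135708181 in GRCm38, plus strand) had 7 UMIs in 5 of 56 WT2 members and 55 UMIs in 31 of 72 KO2 members, or 2.41 and 11.5 CPM, a ratio of 4.78 (2.17 to 12.4), which goes against the direction of the label. The ratio was 8.14 without the 5% of members of highest UMI count. In enterocytes it stood at 36.5, 32.7 and 36.3 CPM in WT1 to WT3 and at 39.3, 28.0 and 32.8 CPM in KO1 to KO3, ranges that overlapped. The libraries count 3′ tags, and the exons removed by Cre are not given in the sources used here, so a transcript without them could still be counted. Il10rb, the partner chain, stood at 29.6 and 23.1 CPM in WT2 and KO2 members. Of 11 genes of the interferon receptor list, 5 reached 20 CPM, 0 were called in either direction, and their median log2 ratio was -0.15.

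**Figure D2:**
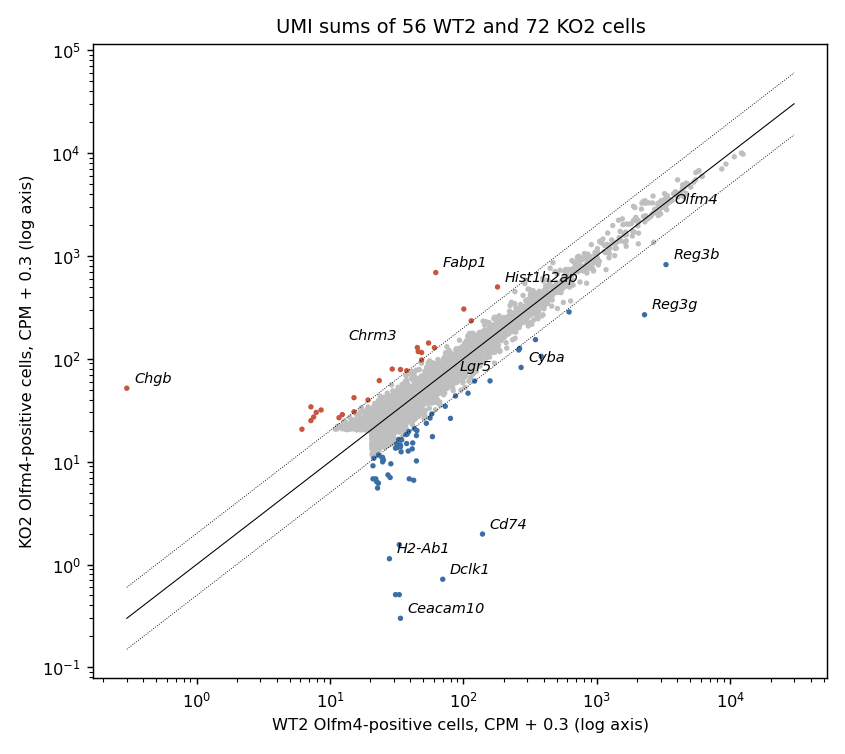
Each point is a gene of at least 20 CPM in WT2 or KO2 members, by its CPM plus 0.3 in WT2 (horizontal, log axis) and KO2 (vertical, log axis), with dotted lines at 2-fold. Red points are the 26 genes called higher and blue points the 62 called lower in KO2, among them Cd74, H2-Ab1 and Ceacam10 far below the line.

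MHC class II genes were far lower in KO2 members. Cd74 (chr18:60803848-60812652, plus strand), the invariant chain that accompanies class II molecules, had 402 UMIs in 42 of 56 WT2 members and 8 UMIs in 7 of 72 KO2 members. This is 139 CPM (exact Poisson interval 125 to 153) against 1.68 CPM (0.724 to 3.30), a ratio of 0.0121 (0.00519 to 0.0241). H2-Ab1 (chr17:34257689-34269419, plus strand), a beta chain, had 80 UMIs in 31 cells against 4 in 4 cells. H2-Eb1 had 41 UMIs against 3, a ratio of 0.0445 (0.00882 to 0.140), and H2-Aa had 15 against 2, a ratio of 0.0811 (0.00900 to 0.349). The peptide loading chains H2-DMa and H2-DMb1 had 42 and 12 UMIs in WT2 against 29 and 2 in KO2. Ciita, the coactivator, had 5 UMIs against 3, too few to compare. Summed, the 7 class II genes had 206 CPM in members of WT2 against 10.7 CPM in those of KO2, a ratio of 0.0520 (0.0382 to 0.0692). Cells varied: 8 of 56 WT2 members held no class II UMI and the highest held 26.7 per 10000, while 38 of 72 KO2 members held none and the highest held 0.683. The WT2 median was 0.941 and the KO2 median was 0.

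The same contrast in other cells rests on more mice, which the rule did not use. The 3 mice of each genotype shared a library, so genotype and library cannot be told apart in it. In enterocytes the class II genes summed to 148, 596 and 438 CPM in WT1, WT2 and WT3 and to 53.8, 23.4 and 42.9 CPM in KO1, KO2 and KO3. The genotypes did not overlap (394 ± 227 against 40.0 ± 15.4 CPM, SD, n = 3 mice each, 2-sided exact permutation p = 0.1, the smallest possible with 3 against 3). WT2 was the highest and KO2 the lowest of the 6 mice, so the ratio between these mice, 0.0392, was wider than the ratio of the means over mice. Among 5066 genes with a mean of 20 CPM in enterocytes of either genotype, 6.06% were lower in KO and 12.1% higher without overlap, and the smallest permutation p adjusted over those genes (Benjamini-Hochberg) was 0.550.

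Class I and proteasome genes of antigen presentation were lower in KO2 by less. B2m, the light chain of class I molecules, was at 348 CPM in WT2 members against 264 CPM in KO2 members, a ratio of 0.759 (0.698 to 0.826). H2-K1 and H2-D1, class I heavy chains, had ratios of 0.823 and 0.685, and Psmb8, a subunit of the immunoproteasome, had 0.499 (0.395 to 0.629). Of 36 listed antigen presentation genes, 15 reached 20 CPM, 3 were called lower (Cd74, H2-Ab1 and Psmb8) and 0 higher, against 0.955% and 0.400% of 6495 genes. Their median log2 ratio was -0.52 against -0.01 over all genes.

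Interferon-stimulated genes were scarce in members and differed little by this measure. The list summed to 772 CPM in members of WT2 and 672 CPM in those of KO2, a ratio of 0.870 (0.824 to 0.919), and to 5637 and 2447 CPM in enterocytes, a ratio of 0.434. In cycling Olfm4-low cells it summed to 982 and 743 CPM, a ratio of 0.756 (0.725 to 0.789), so the low level was not particular to members. In enterocytes of the 6 mice the list stood at 5095 to 6203 CPM in WT and 2447 to 3316 CPM in KO without overlap (exact permutation p = 0.1). Here too genotype and library cannot be told apart. Of 55 listed genes in the files, 11 reached 20 CPM in members, 0 were called, and their median log2 ratio was -0.13. In enterocytes 44 reached 20 CPM and 28 were called lower in KO2, against 1.59% of 5282 genes. Of the 11 genes that reached 20 CPM in members, 5 were called lower in KO2 enterocytes. Whether members and enterocytes differ in this response was not tested, since each genotype has 1 mouse with members.

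The 4 genes of the list at the highest CPM in WT2 members had KO2 over WT2 ratios of 0.868 to 1.36. Epsti1 had 105 and 91.0 CPM, Ifi27l2b 93.0 and 93.9 CPM, Lgals3bp 66.5 and 72.1 CPM and Slfn9 56.2 and 76.3 CPM in WT2 and KO2. The genes best known for their interferon response were near the detection limit. Isg15, a ubiquitin-like modifier with the 3 motif matches shown above, had 29 UMIs in WT2 and 16 in KO2 members, 9.99 against 3.35 CPM, a ratio of 0.336 (0.170 to 0.639) that became 0.200 with all members of each library. Its enterocyte levels were 400 and 81.5 CPM. Ifit1, with 2 matches, had 1 UMI in WT2 members and 0 in KO2 members, against 154 and 12.1 CPM in enterocytes. Irf7, a regulator of interferon responses, had 38 and 27 UMIs, a ratio of 0.432 (0.254 to 0.727). Zbp1, a nucleic acid sensor, had 12 and 4 UMIs. Ifit2 went the other way, with 4 UMIs in WT2 and 26 in KO2. Among the 41 listed genes with more than 10 UMIs over both mice, the counting interval lay below 1 in 15 and above 1 in 3. Per cell the list had a median of 7.66 UMIs per 10000 (4.13 to 31.9) in WT2 and 6.31 (0 to 16.7) in KO2 members, ranges that overlapped.

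**Figure D3:**
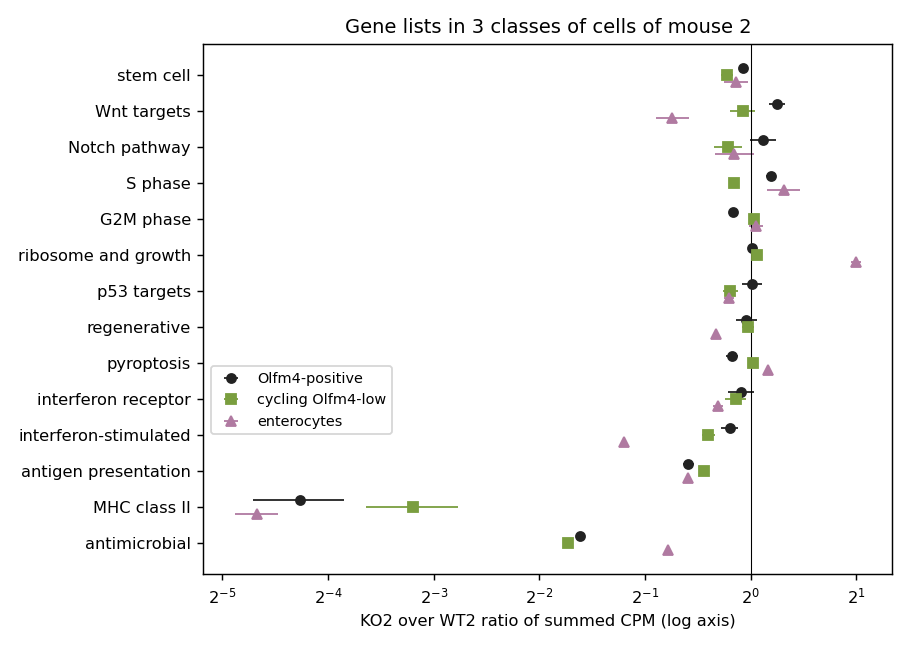
KO2 over WT2 ratio of summed CPM (horizontal, log axis) for 14 gene lists in Olfm4-positive cells (circles), cycling Olfm4-low cells (squares) and enterocytes (triangles), with exact 95% intervals for counting error. The MHC class II list is far below 1 in the 3 classes, while the interferon-stimulated list is at 0.870 in members, 0.756 in cycling Olfm4-low cells and 0.434 in enterocytes. The stem cell list includes Olfm4, on which members were chosen.

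Stem cell genes were near level or somewhat higher in KO2. The stem cell list summed to 6448 CPM in WT2 members against 6132 CPM in KO2 members, a ratio of 0.951 (0.934 to 0.969). Olfm4, on which members were chosen, made up 3331 and 2803 CPM of these sums, so the direction of this ratio depends on it. Without Olfm4 the list had a median per cell of 28.8 UMIs per 10000 in WT2 members and 32.9 in KO2 members. That is the other direction, with ranges that overlapped (9.04 to 103 and 9.65 to 94.4). Of 28 genes, 22 reached 20 CPM, 2 were called higher (Soat1 and Gkn3) and 0 lower, against 0.400% and 0.955% of 6495 genes. The median log2 ratio of the list was 0.24. Soat1, a sterol acyltransferase, stood at 60.3 and 128 CPM with UMIs in 39 of 56 WT2 and 67 of 72 KO2 members. Gkn3, a gastrokine, stood at 48.2 and 96.8 CPM, at the 2-fold limit, and its ratio of 2.01 became 1.82 without the cells of subcluster 5 described below. Lgr5 was higher by a ratio of 1.56 (1.32 to 1.83), the negative Wnt regulator Axin2 by 1.49 (1.23 to 1.79) and Smoc2 by 1.17 (1.06 to 1.29), none of them past 2-fold. Clca3b went the other way, at 635 and 363 CPM. Wnt targets had a median log2 ratio of 0.26 over 9 genes and the Notch pathway 0.19 over 6, with 0 called in each. The Notch target Hes1 stood at 110 and 137 CPM, and the receptor Notch1 at 27.2 and 33.7 CPM. Atoh1, the secretory fate factor that Notch holds down, had 34 UMIs in 5 WT2 cells and 26 UMIs in 7 KO2 cells. The ligand Dll1 had 22 and 42 UMIs, or 7.58 and 8.80 CPM, a ratio of 1.16 (0.678 to 2.04).

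The proliferation, damage and injury lists differed little as a whole. The S phase list had a ratio of 1.14 (1.11 to 1.18) and the G2M list 0.892 (0.874 to 0.911), each with 24 of 24 genes at 20 CPM and 0 called. Mki67 stood at 178 and 197 CPM and Top2a at 333 and 368 CPM. Histone genes outside these lists were called higher in KO2 members. Hist1h2ap stood at 180 and 498 CPM, a ratio of 2.77 (2.52 to 3.05), and Hist1h4d and Hist1h4h had ratios of 2.64 and 3.59. In enterocytes these genes were low but also higher in KO, without overlap between genotypes (3 mice each). Their means there were 1.13, 5.09 and 1.25 CPM in WT and 3.60, 8.33 and 3.13 CPM in KO. Hist1h2ap and Hist1h4d were also leading genes of subcluster 1, described below, which held 14.3% of WT2 and 34.7% of KO2 members. Whether these shares bear on the ratios was not tested. The p53 target list had a ratio of 1.01 (0.947 to 1.07) and 0 of 9 genes called. Cdkn1a, the p53-induced inhibitor of the cell cycle, stood at 21.0 and 15.9 CPM in members and at 309 and 217 CPM in enterocytes, and Mdm2 at 20.7 and 21.0 CPM in members. The regenerative list, genes of fetal-like epithelium after injury, had a ratio of 0.972 (0.907 to 1.04). Of its 6 genes at 20 CPM 1 was called higher, Ly6e, at 48.2 and 114 CPM, against 0.400% of 6495 genes. Clu stood at 6.20 and 6.08 CPM. Egfr, the receptor for epidermal growth factor, stood at 64.8 and 76.3 CPM, a ratio of 1.18 (0.985 to 1.41).

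Pyroptosis genes, which the study's title concerns, were mostly level in members. Of 29 listed genes 15 reached 20 CPM, 1 was called lower and 0 higher, against 0.955% and 0.400% of 6495 genes. The gene called lower was Casp4, the caspase that senses cytosolic lipopolysaccharide, at 27.9 and 6.71 CPM, a ratio of 0.240 (0.154 to 0.366). The inflammasome adaptor Pycard stood at 921 and 768 CPM and Casp8 at 72.7 and 72.5 CPM. Gsdmd, a pore-forming gasdermin, had 57 and 74 UMIs, or 19.6 and 15.5 CPM. Gsdmc2, Gsdmc3 and Gsdmc4 had 1, 0 and 11 UMIs in WT2 members and 2, 2 and 5 in KO2 members, at or near the floor. In the cycling Olfm4-low cells they stood at 15.2, 3.87 and 21.6 CPM in WT2 and lower, at 5.95, 1.37 and 14.4 CPM, in KO2. Gsdmc4 went the other way when all kept cells outside the members were summed. There WT2 had 5.51 CPM against 8.55 for KO2, a ratio of 1.55, while the Gsdmc2 and Gsdmc3 ratios were 0.852 and 0.814. Enterocytes were near the floor, with 1 Gsdmc4 UMI for WT2 against 16 for KO2, and no UMI of Gsdmc2 or Gsdmc3.

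Antimicrobial genes were also lower in KO2 members. Reg3g (chr6:78466269-78468872, minus strand), a bactericidal lectin, was at 2272 CPM in WT2 members against 267 CPM in KO2 members, a ratio of 0.118 (0.111 to 0.125), with UMIs in 56 of 56 and 66 of 72 cells. Reg3b, its neighbour on chromosome 6, stood at 3291 and 821 CPM, a ratio of 0.249 that became 0.155 without the 5% of members of highest UMI count. Of 18 listed genes in the files 6 reached 20 CPM and 4 were called lower, against 0.955% of 6495 genes. The 2 called lower besides Reg3g and Reg3b were Reg1 and Duox2, an enzyme that makes hydrogen peroxide. The ratio of the list was 0.326 in members, 0.301 in cycling Olfm4-low cells and 0.583 in enterocytes. This contrast did not extend over the mice: in enterocytes Reg3g stood at 1064, 11002 and 2910 CPM in WT1 to WT3 and at 1229, 4771 and 2133 CPM in KO1 to KO3, and WT2 was far above both other WT mice (exact permutation p = 0.7). Cyba, the small subunit of NADPH oxidases, had the same form, at 270 and 81.9 CPM in members and at 17.6, 57.8 and 19.2 CPM in WT enterocytes against 21.5 to 22.7 CPM in KO.

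By size alone, the 10 lowest ratios belonged to Dclk1, Rgs13, Dgki, Cd74, Ceacam10, H2-Ab1, St18, Reg3g, Tanc2 and Tmem267. Dclk1 and Rgs13, tuft cell genes, Dgki and St18 came almost wholly from 1 WT2 cell each (99.5%, 100%, 98.9% and 100% of the WT2 UMIs), and Tanc2 with 49.2%. Ceacam10 (chr7:24777206-24784657, plus strand), a member of the carcinoembryonic antigen family, had 97 UMIs in 31 of 56 WT2 members and 0 in 72 KO2 members, at least 53.2-fold lower against a floor of 3 UMIs in KO2. In all other kept cells it stood at 1.44, 4.18 and 3.32 CPM in WT1 to WT3 and 0.272, 0.160 and 1.36 CPM in KO1 to KO3, and in enterocytes at 0 to 0.220 CPM in the 6 mice. Tmem267, a membrane protein gene, had 113 UMIs in 37 cells against 31 in 22 cells.

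The 10 highest ratios belonged to Chgb, Fabp1, Sis, Gstm3, Gsta1, Scd2, Hist1h4h, Mxra7, Rbp2 and Chrm3. Chgb, a granule protein of enteroendocrine cells, had 0 UMIs in WT2 and 245 in KO2, at least 49.7-fold higher, but 219 of them lay in 1 cell, and without the leading cell the ratio was 5.14. Fabp1, Sis, Rbp2 and Gsta1 are products of absorptive cells, and 1 KO2 cell held 47.1%, 30.4%, 43.0% and 51.3% of their UMIs. Without the leading cell of each mouse the Fabp1 ratio moved from 11.1 to 7.05, and among members with under 5% enterocyte transcripts it was 6.33. With the members of no single mouse added it was 3.60, or 3.95 without the hashtag doublets, and at a stricter Olfm4 limit of 5 UMIs and 10 per 10000 it was 18.1. Chrm3, the muscarinic acetylcholine receptor M3, was spread over more cells, at 44.8 CPM in 31 of 56 WT2 and 128 CPM in 53 of 72 KO2 members, a ratio of 2.86 (2.36 to 3.48). The histone gene Hist1h4h had 20 and 118 UMIs in 16 and 35 cells. Gene lists of other cell types moved with these cells: the enterocyte list summed to 2488 and 3587 CPM, the enteroendocrine list to 41.0 and 111 CPM, the tuft list to 150 and 3.98 CPM and the goblet list to 2423 and 1462 CPM in WT2 and KO2 members. The rule limited goblet transcripts in every member, so the goblet sums depend in part on the choice of cells. The enterocyte ratio of 1.44 turned to 0.884 when all members of each library were used and to 0.799 when all but the hashtag doublets were. Their part in the other results was not tested.

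**Figure D4:**
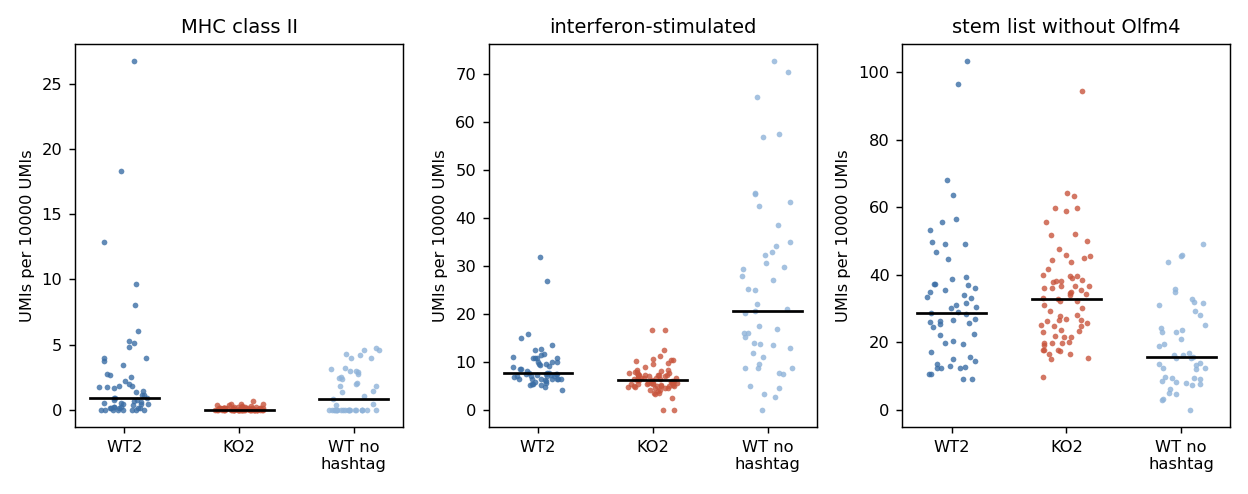
UMIs per 10000 of the MHC class II, interferon-stimulated and stem cell lists (the last without Olfm4) in each Olfm4-positive cell of WT2, KO2 and the WT barcodes with no hashtag, with a black line at the median. Class II medians are 0.941, 0 and 0.831, and the interferon-stimulated medians are 7.66, 6.31 and 20.6.

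The unassigned WT members carried more enterocyte and interferon transcripts than the hashtagged ones. Their enterocyte list summed to 25542 CPM and their interferon-stimulated list to 1956 CPM, against 2488 and 772 CPM in WT2 members, and to 25940 and 1943 CPM without the barcode with neutrophil genes. Lgr5 stood at 84.7 and Ascl2 at 38.8 CPM. Their class II median was 0.831 per 10000, with 21 of 47 cells at 0. At a median of 4134 UMIs per cell, against 48443 in WT2 members, this value is not compared with the 0.941 of WT2 members. Summed, Cd74 stood at 98.8 CPM in the unassigned WT members against 139 CPM in WT2 members. The unassigned members have no mouse and enter the comparison of genotypes only where a value is given with all members of each library.

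Clustered without interferon-stimulated and antigen presentation genes, the 177 members that were not hashtag doublets fell into 5 subclusters. Subcluster 1 (45 cells) was led by Hist1h2ae, Hist1h2ap, Nusap1 and Aurka, genes of chromosome packing and mitosis, and had 7345 CPM of the G2M list. Subcluster 2 (38 cells) was led by Fabp1, Rbp2 and Gsta1, had 39187 CPM of the enterocyte list and was shallow, with a median of 4067 UMIs. Subcluster 3 (36 cells) was led by S100a6, a calcium-binding protein, and Phlda3, a p53 target. It held the barcode with neutrophil genes. Subcluster 4 (36 cells) was led by Syn3, Chrm3, Rgcc and Sorbs2 and had the most stem cell list UMIs, at 8798 CPM, and 1327 CPM of Wnt targets. Subcluster 5 (22 cells) was led by Spink4, Agr2, Mmp7 and Lyz1 and had 8533 CPM of the goblet list. They are called by number because the same genes defined them.

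Subclusters took different shares of the mice. Subcluster 4 held 10 of 56 WT2 members (17.9%) and 26 of 72 KO2 members (36.1%), subcluster 1 held 8 (14.3%) and 25 (34.7%), and subcluster 5 held 15 (26.8%) and 3 (4.17%). Subcluster 2 held 30 of the 47 unassigned WT members, and 3 of WT2 and 5 of KO2. With 1 mouse per genotype these shares carry no test. The class II list was lower in KO2 in each subcluster, with only 1 UMI in the 3 WT2 cells and 3 UMIs in the 5 KO2 cells of subcluster 2. It stood at 217, 49.3, 140, 345 and 198 CPM in WT2 cells of subclusters 1 to 5 and at 7.58, 14.0, 12.1, 14.6 and 4.36 CPM in KO2 cells. Lgr5 was higher in KO2 cells of subclusters 1 to 4, at 16.6, 148, 27.3 and 180 CPM in WT2 against 28.8, 209, 46.4 and 266 CPM in KO2, with only 3 UMIs in the 3 WT2 cells of subcluster 2. In subcluster 5 it was lower, at 136 against 61.1 CPM, the latter from 14 UMIs in 3 KO2 cells.

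**Figure D5:**
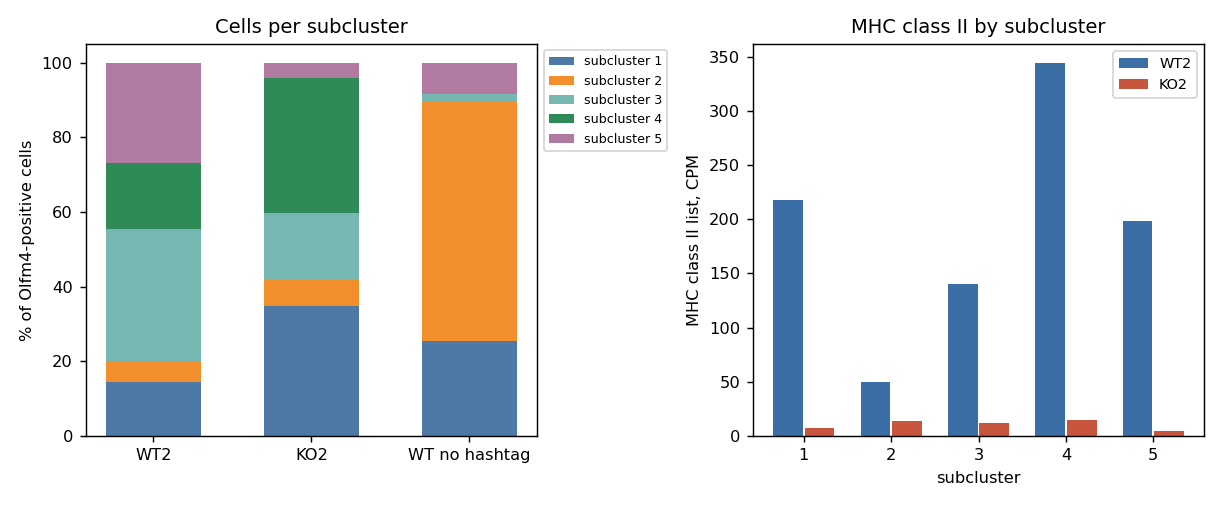
Left, percent of Olfm4-positive cells of WT2, KO2 and the WT barcodes with no hashtag in subclusters 1 to 5. Right, summed CPM of the MHC class II list in WT2 and KO2 cells of each subcluster, with WT2 at 49.3 to 345 CPM and KO2 at 4.36 to 14.6 CPM.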

How the data were processed

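The deposited matrices hold raw UMI counts per gene and hashtag, whole numbers without normalization; the authors name Cell Ranger 7.0.1, Seurat 4.1.0 and the build mm10, with no role given, per the submitters' processing notes. Each deposited barcode was given a hashtag by the HTODemux function of Seurat 5.3.0 at a quantile of 0.99. Hashtagged members of each mouse were summed and scaled by their total UMIs, and ratios carry exact conditional binomial intervals at 95% (scipy 1.17.1). The procedure was tested on simulated Poisson counts without spread between cells or mice, which the intervals also assume. That test cannot show how the intervals behave under such spread.

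The planned edgeR quasi-likelihood test asked for at least 2 mice per genotype with 10 members each. Only WT2 and KO2 reached 10, so no model was fitted and a rule of size, the 10 largest ratios each way among genes of 20 CPM, was set after that count was known. The named genes also included 5 markers, 20 leading genes (at least 50 CPM in members of both mice) and genes often looked for. Members and gene lists were chosen with earlier results of these data known. Subclusters used scanpy 1.11.5 and leidenalg 0.10.2 (2000 variable genes, 20 components, 15 neighbours, resolution 0.5). Doublets other than hashtag doublets stay in. Gene positions are from GENCODE on GRCm38, the build of mm10, and promoters from RefSeq. The labels name a further independent experiment, not analysed here.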

Additional observations from a re-analysis of the deposited data

How the results depend on the processing

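No paired analysis was possible because only mouse 2 of each genotype held enough members, so DESeq2, the replicate block, the removal of single mice from the gene comparison and the interaction tests were not run. The 26 genes called higher and 62 called lower became 694 and 693 with no filter on low counts, which adds genes with a few UMIs. With the hashtag ratio rule 41 were called higher, and with all unassigned members added 94 were called lower. Under TMM or RLE scaling 55 of the 62 lower calls and 26 of the 26 higher calls remained. Without subcluster 5, 38 and 21 remained, and the ratio of Agr2, a secretory cell protein, changed from 0.276 to 1.14. The enterocyte list ratio of 1.44 changed to 0.884 with all members of each library and to 0.799 with all but hashtag doublets. The Lgr5 ratio without subcluster 5 was 2.00, just short of the limit.

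The difference in share between genotypes changed sign to -0.181 percentage points at a mitochondrial limit of 15% (exact permutation p = 0.7) and ranged from -2.19 to 2.36 when 1 mouse was left out, with its sign set by which mouse it was. Thinned to 2000 UMIs in place of 5000, which lowers detection by construction, Ascl2, Mki67 and Top2a were seen in 1.79%, 16.1% and 39.3% of WT2 members, and in 11.6%, 27.5% and 33.3% of KO2 members. The order of WT2 and KO2 for Ascl2, 24.1% and 17.4% at 5000 UMIs and 60.7% and 76.4% before thinning, thus turned with the depth, as did that for Top2a, 57.4% and 58.0% at 5000 UMIs. Of 300 values of 25 lists and genes under 12 settings, 237 stayed within the counting interval of the reported value, 60 moved beyond it and 3, the enterocyte list in both settings and Agr2, changed direction. Leaving out the filter on low counts cannot change these values, so that setting counts among the 237 by construction. TMM and RLE scaling each multiply every ratio by the same constant.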

Other observations

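Some genes outside the named ones differed in members of mouse 2 and were noticed after their values were seen. Nrg1, a ligand of ErbB receptors, had 1 UMI in WT2 and 57 UMIs in 8 KO2 cells, 34 of them in 1 cell. Nos2, the inducible nitric oxide synthase, had 17 UMIs in 12 WT2 cells and 0 in KO2. Lcn2, an iron-sequestering antimicrobial protein, had 16 UMIs in 13 WT2 cells and 1 in KO2. Duoxa2, the maturation factor of Duox2, had 57 and 15 UMIs. Foxa2, a transcription factor of secretory cells, had 15 UMIs in 10 WT2 cells and 69 in 26 KO2 cells. Vim, a stromal marker, had 39 UMIs, all in 1 KO2 cell.

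Of the 62 genes called lower in KO2 members, 32 reached 20 CPM in enterocytes of mouse 2, and 5 were also called lower there, which is 15.6% of those 32, 8.06% of the members' calls and 5.95% of the 84 calls in enterocytes. Both sets of calls come from WT2 and KO2, and 1.59% of 5282 genes were called lower in enterocytes.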
